A study of Mus musculus with 28 samples.

Results

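The genes described here are 10 members of the interleukin 6 family pathway: the ligands Il6, Lif, Osm and Il11, the receptor chains Il6ra, Il6st, Osmr and Lifr, the transcription factor Stat3 and the inhibitor Socs3. They are 10 of 18194 genes tested on Affymetrix arrays. Each gene is represented by the probe set, among those annotated to it alone, with the highest mean over all arrays. The 10 genes have 24 such probe sets, and the other 14 are described beside the ones used. The genes were named by symbol.

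Retroperitoneal fat, a white fat depot behind the abdominal cavity, was taken from 9-week-old mice of a strain written C57BK/6J in the labels. The mice ate a diet with conjugated linoleic acid (CLA) at 0.5%, as the trans-10 cis-12 isomer, which reduces body fat in mice, or a control diet whose composition and fat source the labels do not give. Pads were collected on days 1, 2, 3, 4, 7, 10 and 17, with 2 CLA arrays and 2 control arrays on each day, 28 in all. Both pads of 10 mice were pooled, per the labels, and the sex of the mice is not given there. The labels do not say whether the arrays of a group come from separate pools. The series record speaks of replicated pools and counts 140 mice, which is 10 for each of the 14 groups. If the arrays share a pool, the errors and p-values given here measure technical spread only and not the spread between mice.

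Cytokines of the interleukin 6 family signal through receptor complexes that share gp130, the product of Il6st. Interleukin 6 and interleukin 11 each bind a receptor of their own before gp130 joins, leukemia inhibitory factor pairs gp130 with the product of Lifr, and in the mouse oncostatin M signals mainly through gp130 with the product of Osmr. The complexes activate JAK kinases, which phosphorylate STAT3. Phosphorylated STAT3 enters the nucleus and switches on genes that include Socs3, whose protein binds gp130 and the JAKs and shuts the signal down. Socs3 mRNA is therefore widely used as a readout of the pathway. Arrays measure mRNA, so neither cytokine protein nor STAT3 phosphorylation was measured.

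All values are log2 signals as the authors deposited them, and a difference of 1 is a change of 2-fold. A gene is called higher or lower where the adjusted p of limma, taken over all 18194 genes, is under 0.05. Differences are CLA minus control, with their standard error (SE). The signal of 1 probe set says nothing about its level against another probe set, so genes are not ranked by signal.

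On the first day of feeding 3 of the 10 genes were higher with CLA and 1 was lower. Il6, Socs3 and Osmr were higher and Lifr was lower, while Lif, Osm, Il11, Il6ra, Il6st and Stat3 did not pass. Of all genes tested, 18.8% were called on this day, 7.96% higher and 10.8% lower. The median difference on day 1 was 0.22 over the 10 genes and 0.01 over all genes. Over all 7 days together Socs3 and Osmr were higher and Lifr lower, 3 of the 10 genes, where 38.5% of all genes were called, 18.7% higher and 19.8% lower.

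**Figure D1:**
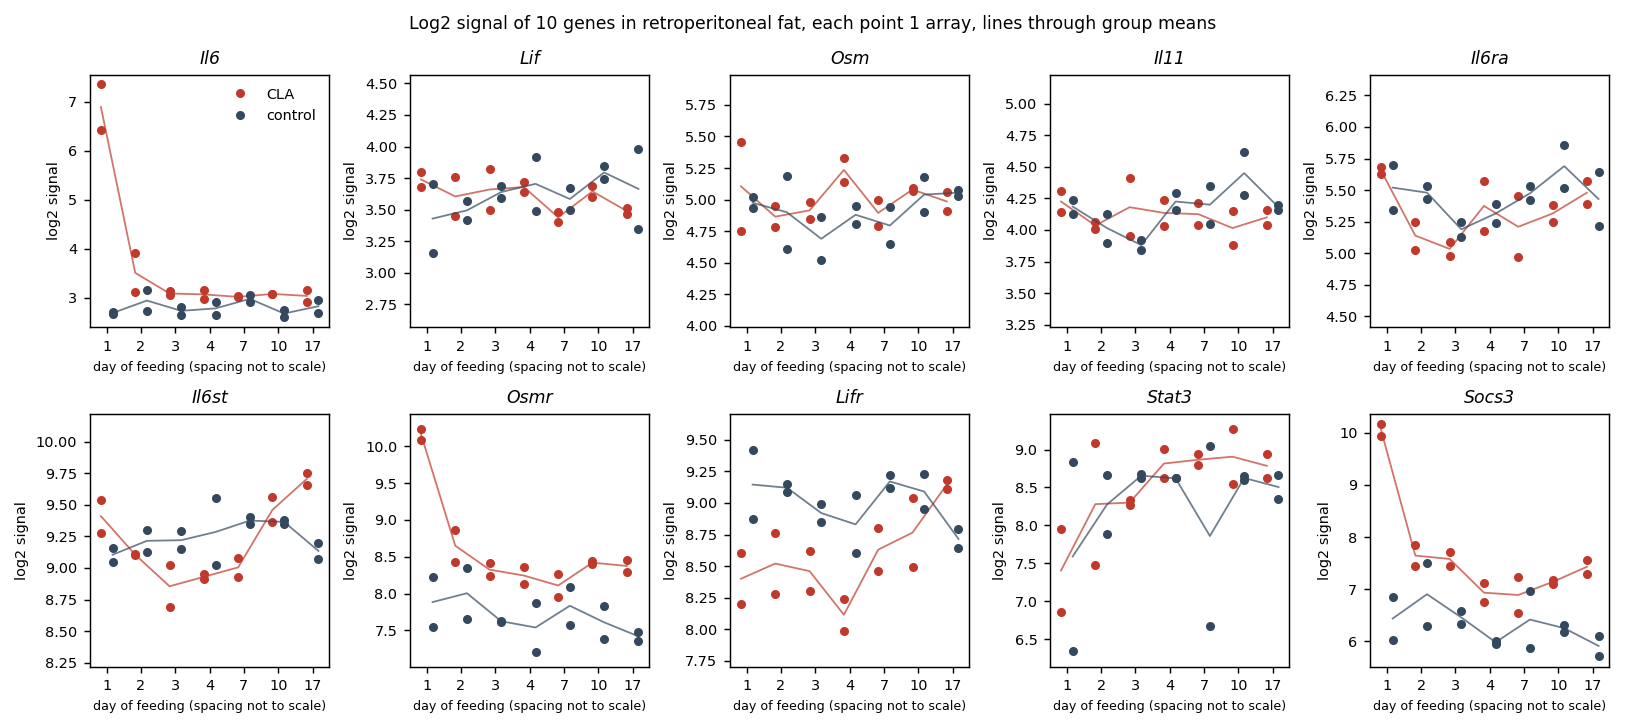
Log2 signal (vertical axes) of the 10 genes by day of feeding (horizontal axes, spacing not to scale). Each point is 1 array, CLA in red and control in blue, and lines join the means of the 2 arrays of a group. The vertical axes differ between panels and do not start at 0. The CLA arrays of day 1 stand above every other array for Il6, Osmr and Socs3.

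Markers of other cells and a measure of RNA quality also differed between groups. Adipocyte markers fitted the labelled tissue, and their summed signal was 20100 to 27100 on the CLA arrays and 32100 to 44900 on the control arrays, with 7 of 7 lower over all days. Of 7 neutrophil markers 4 were higher on day 1, and their summed signal was 680 and 864 on the CLA arrays, against 175 and 151 on the control arrays. S100a8 and S100a9, which encode calprotectin, were at 2.57 and 3.47, while Elane, an elastase of immature neutrophils, was at -0.04. On day 2 the sum was 869 and 762 on the CLA arrays. It also separated the diets on day 3, with 389 and 305 on the CLA arrays and 147 and 286 on the control arrays, and on day 17, with 291 and 192 on the CLA arrays and 133 and 153 on the control arrays. On day 4 it was lower with CLA, at 145 and 147 on the CLA arrays and 168 and 154 on the control arrays. Replicate 1 of control day 2 had a neutrophil sum of 787 and replicate 1 of control day 7 of 568, where the other replicates had 166 and 150. Those replicates were also the higher control arrays of their days for Osmr and Socs3. On day 2 Osmr read 8.35 on that control array and 7.66 on the other, and Socs3 read 7.51 and 6.3. Of 10 macrophage markers 2 were higher on day 1, when the sum was 4390 and 5520 on the CLA arrays and 4950 and 5420 on the control arrays. On days 2 to 17 it was 10600 to 24900 on the CLA arrays and 5180 to 7950 on the control arrays, and 8 of 10 were higher over all days. On the CLA arrays the macrophage sum was lowest on day 1. The summed signal of 6 T cell markers was 129 to 152 on the CLA arrays and 129 to 159 on the control arrays. The 3 kidney markers summed to 21.1 to 28.9 on the CLA arrays and 21.6 to 27.6 on the control arrays, and the 4 adrenal gland markers to 55.6 to 79.2 on the CLA arrays and 59.6 to 76.6 on the control arrays. The part of cell types in the results that follow was not tested.

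RNA integrity was read from the signal of 3′ minus 5′ control probe sets of beta-actin, which grows as RNA is degraded. It was 2.72 and 2.28 on the CLA arrays of day 1 and 2.77 and 1.5 on the control arrays of day 1, against 0.77 to 1.87 on all arrays of the other days. The Gapdh difference was 1.27 to 1.31 on the CLA arrays of day 1 and 0.15 to 1.33 on the control arrays of day 1, against 0.15 to 1.2 on the other days. The Pcx difference was 4.1 to 4.65 on the CLA arrays and 3.27 to 5.0 on the control arrays of day 1, against 2.76 to 4.88 on the other days. The Tfrc difference did not set day 1 apart, at 1.32 to 1.46 on the CLA arrays and 1.08 to 1.22 on the control arrays, against 0.91 to 2.05 on the other days. Without control day 1 replicate 2, the array with the low value, the day 1 differences were 4.19 for Il6, 3.20 for Socs3, 1.94 for Osmr and -1.02 for Lifr, and all 4 still passed. The control of day 1 is then a lone array, assumed to vary like the other groups.

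**Figure D2:**
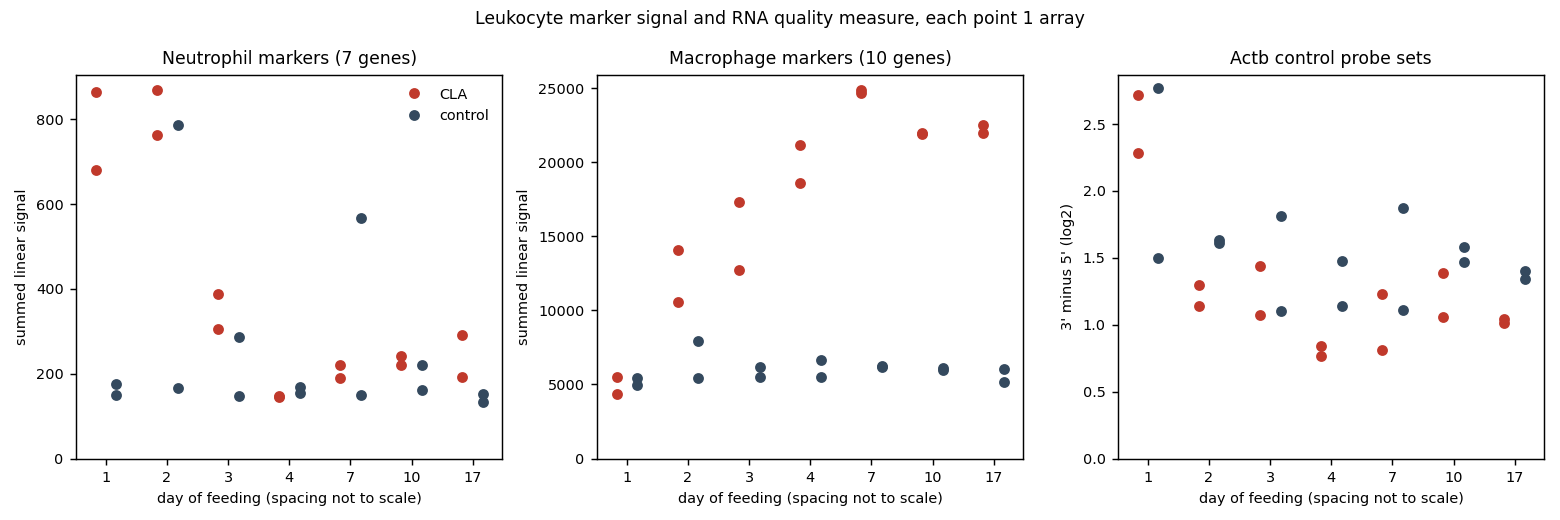
Summed linear signal of 7 neutrophil markers and of 10 macrophage markers, and the beta-actin 3′ minus 5′ control difference (log2), by day of feeding (horizontal axes, spacing not to scale). Each point is 1 array, CLA in red and control in blue. The neutrophil sum lies higher on both CLA arrays on days 1, 3 and 17 and lower on both on day 4, with the widest gap on day 1. The macrophage sum separates them from day 2 on, and 3 of the 4 day 1 arrays have the highest 3′ minus 5′ differences.

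Il6 encodes interleukin 6, a cytokine released by leukocytes, stromal cells and fat tissue. On day 1 its signal was 6.43 and 7.36 on the CLA arrays, against 2.71 and 2.67 on the control arrays. Both CLA arrays lay above every other array of the study. The difference was 4.2 ± 0.25 (SE, n = 2 arrays per diet), 18.4-fold (adjusted p = 2.39e-09). The control signal lay near the low end of all values, which start at 1.9, and the deposited values hold no detection call, so the fold is a ratio of signals on this scale and may understate the change. In whole-pad RNA, more cells of a producing type and more RNA per cell cannot be told apart, here and for each gene below.

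On day 2 the difference was 0.56 ± 0.25 and did not pass (adjusted p = 0.199). Il6 signal was 3.91 and 3.11 on the CLA arrays of day 2, against 3.16 and 2.73 on the control arrays, and the ranges overlapped. On days 2 to 17 the CLA arrays ran from 2.91 to 3.91 with a median of 3.08. The control arrays of those days ran from 2.60 to 3.16 with a median of 2.78. The daily differences on these later days lay between 0.04 and 0.56 and none passed. Of the 14 group means, CLA day 1 was highest at 6.89 ± 0.66 (SD) and CLA day 2 next at 3.51 ± 0.57, and the other means lay between 2.68 and 3.09.

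The change with time was itself tested. The difference between diets varied over the 7 days for Il6 (interaction F = 35.1, adjusted p = 3.79e-06). The day 1 difference exceeded the mean of the later days by 3.90 ± 0.27 (adjusted p = 4.87e-08). Over all 7 days Il6 did not pass, at 0.87 ± 0.47 (adjusted p = 0.186, n = 7 days). In that test the days are the replicates and the spread between them is the error. Without day 1 the difference over the remaining days was 0.31 ± 0.07 (adjusted p = 0.00874), small beside that of day 1. On those days the arrays of both diets, at 2.91 to 3.91 and 2.60 to 3.16, read near the low end of all values. With no detection call, whether Il6 mRNA was present then cannot be told.

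The promoter of Il6 is a compact cytokine promoter, and that of Socs3 is known for its STAT binding element. Both are shown because these genes had the largest day 1 differences of the 10. The sequences are from RefSeq (build GRCm38.p6) and run from 250 bases before to 50 bases after the annotated start of the gene, 5′ to 3′ on the coding strand. Il6 is at chr5:30012864-30013163 on the plus strand and Socs3 at chr11:117969317-117969616 on the minus strand. Capitals mark matches to the motifs searched.
Il6: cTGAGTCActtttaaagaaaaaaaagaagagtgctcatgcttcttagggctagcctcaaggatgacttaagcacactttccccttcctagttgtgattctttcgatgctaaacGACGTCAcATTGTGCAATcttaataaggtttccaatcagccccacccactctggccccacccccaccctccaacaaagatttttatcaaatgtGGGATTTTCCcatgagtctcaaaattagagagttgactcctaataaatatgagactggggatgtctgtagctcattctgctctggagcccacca
Socs3: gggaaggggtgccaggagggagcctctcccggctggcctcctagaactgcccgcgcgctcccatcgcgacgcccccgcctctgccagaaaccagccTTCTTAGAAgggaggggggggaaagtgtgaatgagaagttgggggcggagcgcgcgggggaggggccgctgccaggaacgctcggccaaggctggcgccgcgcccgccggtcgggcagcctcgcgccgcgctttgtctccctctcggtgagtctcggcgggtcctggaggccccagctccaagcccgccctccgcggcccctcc

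Of the 10 genes, 9 have an entry in this promoter table, all but Osm. Motifs were searched by letters on both strands over the 300 bases. The STAT motif TTCNNNGAA was found in 1 of the 9, Socs3, from 154 to 146 bases before the start, and in 8.3% of all 32851 promoters. In Il6 an AP-1 motif (TGANTCA) lay 249 to 243 bases before the start, a CRE core 137 to 131, a C/EBP motif (ATTGTGCAAT) 129 to 120, and a kappa B motif (GGGATTTTCC) 44 to 35 bases before it, with no overlap between them. The search for both of these allowed any base at the fifth letter. The kappa B motif was in 0.411% of all promoters and the C/EBP motif in 0.177%, and among the 9 genes both were found in Il6 alone. The CRE core (GACGTCA) was in 3.21% of all promoters and again in Il6 alone of the 9. The AP-1 motif was in 7.81% of all promoters and in 4 of the 9, Il6, Il11, Lif and Osmr. A match is a string of letters and not a measured binding site, and a missing match says only that these letters are not in this window.

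Lif, Osm and Il11 encode the other ligands measured, leukemia inhibitory factor, oncostatin M and interleukin 11. None of the 3 passed on any day or over all days. On day 1 Lif signal was 3.68 and 3.80 on the CLA arrays, against 3.16 and 3.70 on the control arrays, a difference of 0.31 ± 0.20 (adjusted p = 0.344). On day 1 Osm signal was 4.75 and 5.46 on the CLA arrays, against 5.02 and 4.93 on the control arrays, and the ranges overlapped. Il11 differed by 0.04 ± 0.17 on day 1. Its largest difference was -0.44 ± 0.17 on day 10 (adjusted p = 0.0745), with 4.15 and 3.88 on the CLA arrays and 4.28 and 4.62 on the control arrays. Over the whole study each of the 3 probe sets stayed within 1 log2 unit, with ranges of 0.82 for Lif, 0.94 for Osm and 0.78 for Il11. A second Lif probe set did not pass either. None of the 3 shows a day 1 difference near that of Il6 in these arrays, and a dim probe set can understate a change.

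Osmr, which encodes the chain that pairs with gp130 in the oncostatin M receptor, was the receptor gene with the largest difference. On day 1 its signal was 10.09 and 10.24 on the CLA arrays, against 8.22 and 7.55 on the control arrays. The CLA arrays of day 1 were again above every other array. The difference was 2.28 ± 0.26, 4.86-fold (adjusted p = 4.68e-06, n = 2 arrays per diet).

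After day 1 the Osmr difference was smaller. On days 2 to 17 the CLA arrays ran from 7.95 to 8.87 with a median of 8.38, against 7.21 to 8.35 with a median of 7.62 on the control arrays. On every day but day 7 both CLA arrays lay above both control arrays. The difference passed on day 10 at 0.81 ± 0.26 (adjusted p = 0.0347) and on day 17 at 0.95 ± 0.26 (adjusted p = 0.0128). On days 2, 3, 4 and 7 it was 0.64, 0.70, 0.71 and 0.27 and did not pass. Over all days Osmr was higher by 0.91 ± 0.20 (adjusted p = 0.00692, n = 7 days), and without day 1 by 0.68 ± 0.09 (adjusted p = 0.000283). The mean of every CLA group, from 8.11 to 10.16, was above the mean of every control group, from 7.42 to 8.0, though single arrays of neighbouring groups overlapped.

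The day 1 difference of Osmr exceeded the mean of the later days by 1.60 ± 0.28 (adjusted p = 0.000593), and the difference varied over the 7 days (F = 5.89, adjusted p = 0.0199). The interaction no longer passed without CLA day 1 replicate 1 (F = 4.49), CLA day 1 replicate 2 (F = 3.82) or control day 1 replicate 2 (F = 3.40). The day 10 call was lost without either CLA array of that day (0.79 and 0.83) or control replicate 1 (0.59). The day 17 call was lost without CLA replicate 2 (0.87) or control replicate 2 (0.89). A second Osmr probe set, 1418675_at, was higher on day 1 by 2.02 (adjusted p = 0.000408 over all probe sets). It read 6.40 and 6.60 on the CLA arrays and 4.09 and 4.87 on the control arrays. On the later days it differed by -0.29 to 0.67 and did not pass, nor did it over all days at 0.52 (adjusted p = 0.118). With the mean of the gene's probe sets the day 10 call was lost as well (0.37). The third, 1459217_at, was dim throughout, at 2.53 to 3.15 on the CLA arrays and 2.59 to 3.03 on the control arrays, and did not pass.

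Lifr encodes the receptor chain for leukemia inhibitory factor, which can also serve oncostatin M, and it went the other way. On day 1 its signal was 8.60 and 8.20 on the CLA arrays, against 9.42 and 8.87 on the control arrays. Both CLA arrays lay below both control arrays on days 1, 2, 3, 4 and 7. The difference passed on day 1 at -0.74 ± 0.23 (adjusted p = 0.0271) and on day 4 at -0.71 ± 0.23 (adjusted p = 0.0272). Over all days it was -0.42 ± 0.13 (adjusted p = 0.0332, n = 7 days). Endothelial markers were also lower, with 5 of 6 lower over all days and a median difference of -1.38 on day 4. Their summed signal was 353 and 327 on the CLA arrays of day 4, against 728 and 1000 on the control arrays. Their median difference was -0.37 on day 1, -1.5 on day 7 and -0.84 on day 17. Lifr differed by -0.74, -0.54 and 0.43 on those days. Of 5 mesothelial markers 3 were lower over all days. The part of these cells in the Lifr result was not tested.

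On day 17 the order of the Lifr arrays was turned round, with 9.11 and 9.18 on the CLA arrays and 8.64 and 8.79 on the control arrays. That difference of 0.43 did not pass (adjusted p = 0.217), and neither did the interaction (adjusted p = 0.168). The Lifr calls rested on few arrays. The day 1 call was lost without CLA replicate 2 (-0.54) or control replicate 1 (-0.47), and with the mean of the gene's probe sets (-0.26). With only the 4 arrays of day 1 in the model it was lost as well (-0.74, adjusted p = 0.246 in limma). The day 4 call was lost without CLA replicate 2 (-0.59) or control replicate 2 (-0.49). The call over all days was lost without any 1 of the days before day 17 (-0.37 to -0.44) and without CLA day 10 replicate 2 (-0.38). It was also lost without all arrays numbered replicate 2 (-0.31) and without the day 1 arrays of high beta-actin difference (-0.37). Of the other 2 Lifr probe sets, neither passed on a single day or over all days. One of them, 1450207_at, passed for day 1 minus later days at 0.72 (adjusted p = 0.0409), where the probe set used gave -0.38 (adjusted p = 0.354).

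Il6st, the gene of the shared chain gp130, changed little on day 1 and passed on day 17 only. On day 17 its signal was 9.75 and 9.66 on the CLA arrays, against 9.07 and 9.20 on the control arrays. The difference was 0.57 ± 0.16 (adjusted p = 0.0138). On that day the summed signal of 6 progenitor and fibroblast markers was 15200 and 12500 on the CLA arrays, against 8590 and 8130 on the control arrays, with 2 of 6 higher. Of 5 mast cell markers 4 were higher, with sums of 1370 and 1250 on the CLA arrays and 309 and 285 on the control arrays. On day 10, 4 of the 5 were also higher, with sums of 1250 and 865 against 404 and 404. The progenitor and fibroblast sum was then 12700 and 12600 on the CLA arrays, against 9620 and 9440 on the control arrays. Il6st differed by 0.10 on that day. On day 7, 3 of the 5 mast cell markers were higher, and Il6st differed by -0.37. The part of these cells in the Il6st result was not tested. On days 3, 4 and 7 the difference was -0.37, -0.36 and -0.37, with both CLA arrays below both control arrays, and did not pass. On day 1 the CLA arrays, at 9.28 and 9.54, lay above the control arrays, at 9.16 and 9.05, by 0.31 (adjusted p = 0.218). The difference varied over the 7 days (F = 5.46, adjusted p = 0.0269).

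These Il6st calls also depended on single arrays and on the probe set. The day 17 call was lost without CLA replicate 1 (0.53) or control replicate 1 (0.50). The interaction was lost without any 1 of the 4 arrays of day 17 (F from 4.12 to 4.82) or without control day 3 replicate 1 (4.79). None of the other 3 Il6st probe sets passed in any comparison, and with the mean of the gene's probe sets the day 17 difference was 0.32.

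Il6ra encodes the receptor that binds interleukin 6 itself. The probe set used ran from 4.97 to 5.68 on the CLA arrays, with a median of 5.32, and from 5.13 to 5.86 on the control arrays, with a median of 5.42. It did not pass on any day, and over all days the difference was -0.13 (adjusted p = 0.249). The other probe set, 1452416_at, passed on day 7 alone at 1.76 (adjusted p = 0.00179 over all probe sets), with 6.41 and 5.81 on the CLA arrays and 4.16 and 4.54 on the control arrays. The probe sets of this gene therefore disagree on day 7, where the one used differed by -0.27.

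Stat3, the gene of the transcription factor, gave different answers by probe set. The probe set used, 1426587_a_at, spread widely between arrays of a group, with 6.86 and 7.95 on the CLA arrays of day 1 and 6.34 and 8.84 on the control arrays of day 1. On the control arrays of day 7 it read 6.68 and 9.04. The beta-actin 3′ minus 5′ difference was 2.72 and 2.28 on those CLA arrays of day 1. It was 2.77 and 1.5 on the control arrays of day 1, and 1.87 and 1.11 on those of day 7. On the CLA arrays of day 2 the probe set read 7.48 and 9.08, with beta-actin differences of 1.3 and 1.14. The part of RNA quality in this spread was not tested. The SE of this probe set on a single day was 0.68, and it passed in no comparison, with 0.18 ± 0.14 over all days (adjusted p = 0.391).

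A second Stat3 probe set, 1460700_at, gave closer replicates. Its mean over the 28 arrays, 8.32, lay just under the 8.39 that chose the probe set used. On every day but day 1 both CLA arrays lay above both control arrays. Over all days it was higher by 0.33 ± 0.06 (adjusted p = 0.00243 over all probe sets), and on day 17 by 0.58 (adjusted p = 0.0493), with 8.92 and 8.58 on the CLA arrays and 8.28 and 8.05 on the control arrays. Another, 1459961_a_at, passed on day 1 at 0.99 ± 0.25 (adjusted p = 0.0107), with 6.36 and 6.86 on the CLA arrays against 5.67 and 5.56 on the control arrays. The last, 1424272_at, stayed between 3.89 and 4.57 on the CLA arrays and between 3.98 and 4.46 on the control arrays and did not pass. The probe sets of Stat3 thus disagree on the same arrays, and its response is reported as uncertain.

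**Figure D3:**
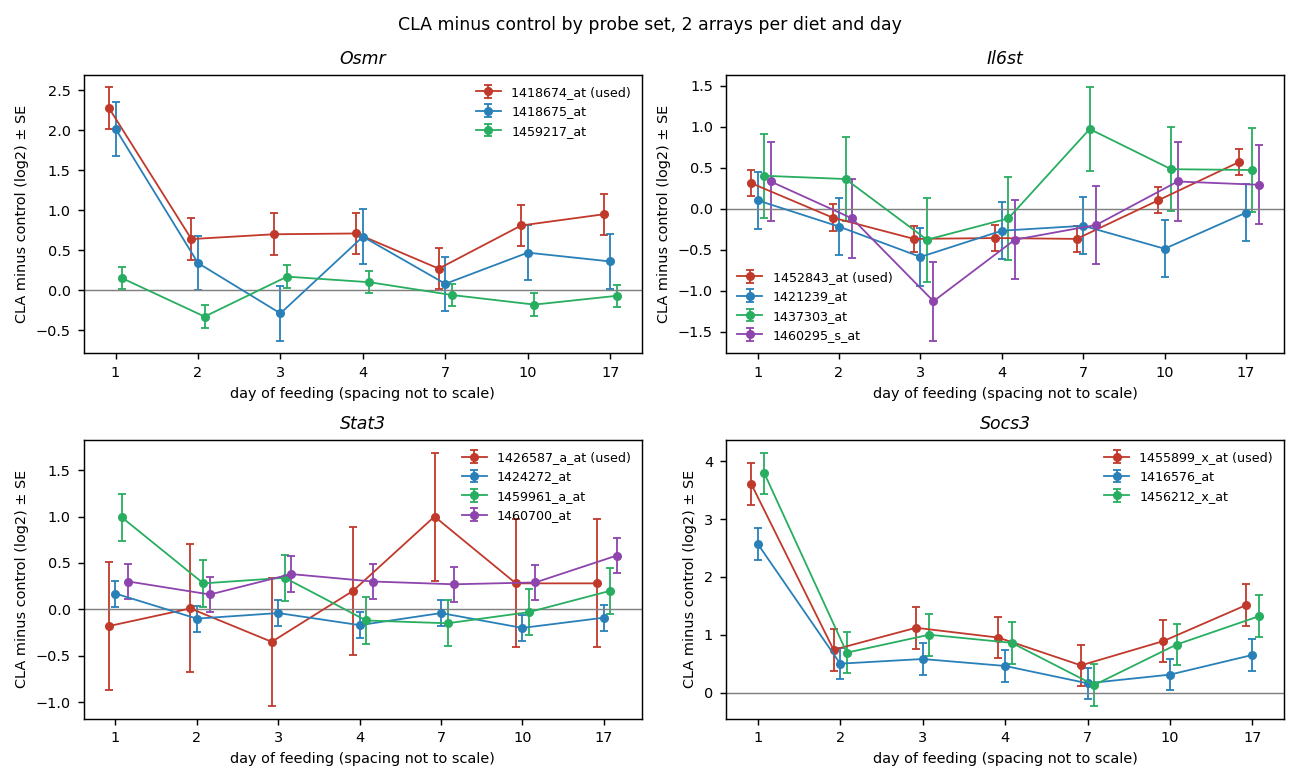
CLA minus control (log2, vertical axes) by day of feeding (horizontal axes, spacing not to scale) for each probe set of Osmr, Il6st, Stat3 and Socs3. Points are model estimates from 2 arrays per diet and day, and bars are ± 1 SE. The 3 Socs3 probe sets and 2 of the 3 Osmr probe sets are high on day 1, while the Stat3 probe set used has bars several times longer than those of the other 3.

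Socs3, the feedback inhibitor, had the second largest day 1 difference of the 10 genes. On day 1 its signal was 9.94 and 10.16 on the CLA arrays, against 6.85 and 6.03 on the control arrays. The CLA arrays of day 1 were above every other array. The difference was 3.61 ± 0.36, 12.2-fold (adjusted p = 9.15e-07, n = 2 arrays per diet). Its day 1 value exceeded the mean of the later days by 2.66 ± 0.39 (adjusted p = 9.21e-05), and the difference varied over the 7 days (F = 8.62, adjusted p = 0.0036).

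A smaller Socs3 difference was present later. On days 2 to 17 the CLA arrays ran from 6.54 to 7.84 with a median of 7.27, against 5.72 to 7.51 with a median of 6.24 on the control arrays. The difference passed on day 3 at 1.12 ± 0.36 (adjusted p = 0.0297) and on day 17 at 1.51 ± 0.36 (adjusted p = 0.00448). On day 17 the signal was 7.30 and 7.56 on the CLA arrays and 5.72 and 6.11 on the control arrays. On days 2, 4, 7 and 10 the difference was 0.74, 0.95, 0.47 and 0.89 and did not pass. Over all days Socs3 was higher by 1.33 ± 0.33 (adjusted p = 0.012, n = 7 days), and without day 1 by 0.95 ± 0.12 (adjusted p = 0.00031). The means of control day 2 (6.90 ± 0.86, SD) and CLA day 7 (6.89 ± 0.49) were next to each other in the order of groups and did not differ beyond their spread.

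The day 3 call of Socs3 was lost without any 1 of the 4 arrays of that day (0.98 to 1.26), and the day 17 call without control replicate 1 (1.32, adjusted p = 0.057). All 3 Socs3 probe sets passed on day 1. The second, 1456212_x_at, differed by 3.79 (adjusted p = 7.95e-07 over all probe sets), with 9.51 and 9.57 on the CLA arrays and 6.03 and 5.47 on the control arrays. The third, 1416576_at, differed by 2.57 (adjusted p = 3.25e-06), with 7.22 and 8.21 on the CLA arrays and 5.02 and 5.27 on the control arrays. The suffix of the first and second is the array maker's mark for probes that may also match other sequences, and the third does not carry it. Over all days the second passed at 1.23 (adjusted p = 0.0302) and the third did not at 0.75 (adjusted p = 0.053).

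The counts of the 10 genes called on each day after day 1 are set here beside the share of all genes. None passed on day 2 in limma, 3 had an unadjusted p under 0.05, and 10.2% of all genes were called. On day 3, 1 gene was called, higher, where 22.3% of all genes were called and 11.3% were higher. On day 4, 1 was called, lower (24.1% of all genes, 11.3% lower). On day 7 none passed in limma, 2 had an unadjusted p under 0.05, and 17.3% of all genes were called. On day 10, 1 was called, higher (20.3% of all genes, 10.0% higher). On day 17, 3 were called, all higher (20.3% of all genes, 11.5% higher). The interaction called 4 of the 10, Il6, Il6st, Osmr and Socs3, and 9.82% of all genes. For day 1 minus later days 3 of the 10 were called, all higher on day 1 (15.9% of all genes, 6.18% in that direction).

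**Figure D4:**
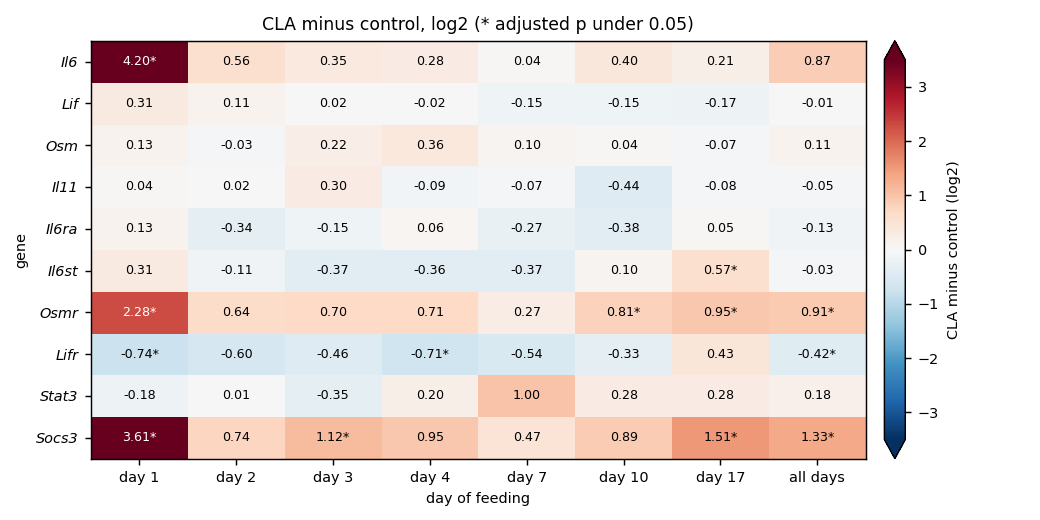
CLA minus control (log2) of the 10 genes, 1 row each, by day of feeding and over all days, with the number in each cell and its size as colour. Asterisks mark an adjusted p under 0.05 in limma. The day 1 column holds the largest values, 4.2 for Il6, 3.61 for Socs3 and 2.28 for Osmr.

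Over the 28 arrays the gene whose log2 signal followed Osmr most closely was Socs3, with a Pearson r of 0.97. Next for Osmr came Adamts1 (0.956), a secreted metalloproteinase, and Slc2a1 (0.948), the glucose transporter GLUT1. Socs3 was followed by Adamts1 (0.958) and Tsr1 (0.955), a ribosome assembly factor. Those closest to Il6 were Gnl2 (0.961), a nucleolar GTPase, Rras2 (0.951), a small GTPase, and Il23a (0.951), a subunit of interleukin 23. For the Stat3 probe set used they were Ppp4c (0.88), Get3 (0.879) and Ehmt2 (0.873). These correlations share the arrays and the 2 CLA arrays of day 1 carry much of the spread of Il6, Osmr and Socs3, so they describe likeness only.

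Other genes of the pathway were taken from 5 lists, of which 35 of 40 genes were measured. The lists were chosen with earlier results of these data known, so their counts beside all genes are a description only. Over all days 19 of the 35 were higher and 8 lower, with a median of 0.55, against -0.03 over all genes, of which 18.7% were higher and 19.8% lower. On day 1, 13 were higher and 4 lower, with a median of 0.44, where 7.96% of all genes were higher and 10.8% lower. The rest of the listed genes were not analysed here.

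Among 3 further ligands of the family, 2 were higher and 1 lower over all days, where 38.5% of all genes were called. Clcf1, which encodes cardiotrophin-like cytokine factor 1, had the pattern of a day 1 rise, by 2.16 ± 0.35 (adjusted p = 0.000212), with 0.83 over all days (adjusted p = 0.012). Ebi3, the shared subunit of interleukins 27 and 35, differed by -0.05 on day 1 (adjusted p = 0.945) and by 1.43 ± 0.25 over all days (adjusted p = 0.00204). Ctf1, which encodes cardiotrophin 1, was lower by 0.95 on the log2 scale over all days (-0.95 ± 0.09, adjusted p = 6.91e-05). Of 4 receptor genes and receptor-shedding proteases 3 were higher and 1 lower over all days, against the same 38.5% of all genes. Adam17, the protease that sheds the interleukin 6 receptor from cells, was higher by 1.17 ± 0.11 (adjusted p = 7.67e-05), and on day 1 by 0.69 (adjusted p = 0.0145). Il27ra, the receptor of interleukin 27, differed by 0.58 and Adam10, a related protease, by 0.55 over all days.

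Of 6 signal transducers 2 were higher and 2 lower over all days, where 38.5% of all genes were called. Stat5a, a STAT used by growth hormone and prolactin, was at -1.03 ± 0.10 (adjusted p = 6.74e-05), and already at -0.92 on day 1. Tyk2, a JAK family kinase, was at 0.58, and Ptpn11, the phosphatase SHP2 that binds gp130, at -0.54. Jak2 passed on day 1 at 1.19 ± 0.28 (adjusted p = 0.00398) but not over all days at 0.35 (adjusted p = 0.067). Of 7 other genes that restrain JAK and STAT signals 3 were higher and 1 lower over all days, against the same 38.5%. Ptpn2 and Ptpn1, tyrosine phosphatases that act on JAKs and STATs, were each higher by 0.85 over all days, and by 1.10 and 0.74 on day 1. Cish, a SOCS family member induced by STAT5, was at -0.98 ± 0.18 (adjusted p = 0.00265) over all days. Pias3, an inhibitor of STAT3, was lower on day 1 (-0.79, adjusted p = 0.0238) and at -0.01 over all days. Socs1 and Socs2, which like Cish and Socs3 belong to the SOCS family, did not pass on day 1, at 0.21 and 0.69, or over all days.

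Of 15 genes known to respond to STAT3 or to interleukin 6, 8 were higher and 2 lower on day 1, with a median of 1.97, where 18.8% of all genes were called. Over all days 9 were higher and 3 lower, with a median of 0.96, where 38.5% of all genes were called. Timp1, an inhibitor of metalloproteinases, was higher by 3.26 ± 0.75 on day 1 (adjusted p = 0.00387) and by 3.16 ± 0.13 over all days (adjusted p = 2.91e-06). Myc, a growth regulator, was higher by 2.90 ± 0.44 on day 1 (adjusted p = 9.52e-05), and Bcl3, a nuclear partner of NF-kappa B, by 2.88 ± 0.33 (adjusted p = 4.36e-06). Junb, an AP-1 subunit, was higher by 1.97 over all days (adjusted p = 2.45e-05). Lcn2, the iron-carrier protein lipocalin 2, did not pass on day 1 at 0.57 and was higher by 2.08 over all days (adjusted p = 0.00264). Most of these genes also answer to other signals, and none is a measure of STAT3 alone.

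**Figure D5:**
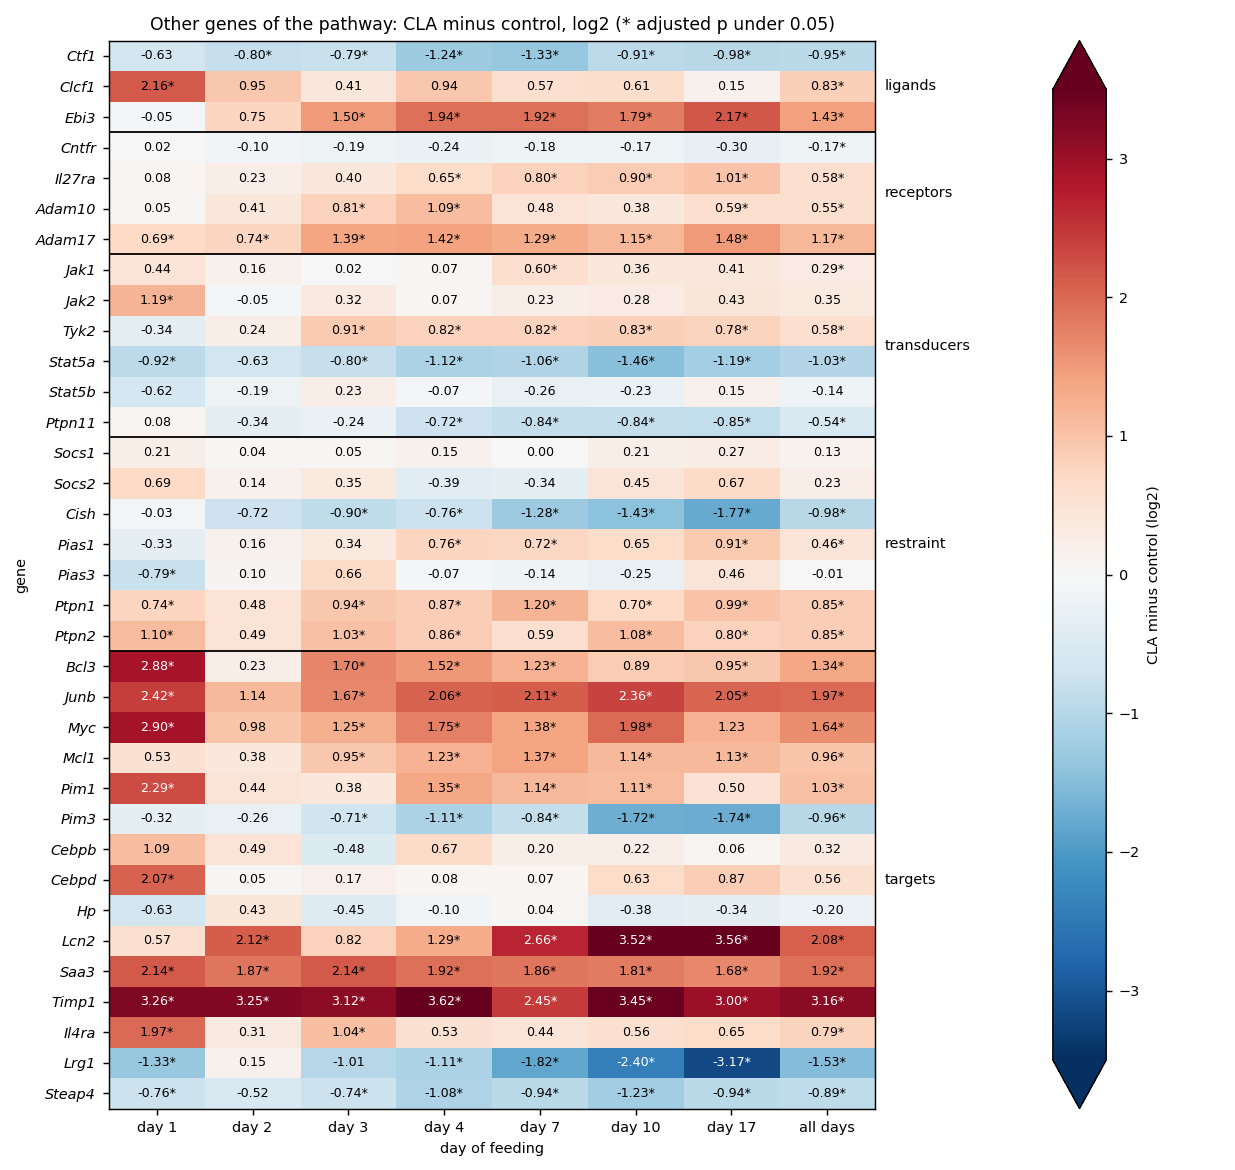
CLA minus control (log2) of the 35 further pathway genes measured, grouped as ligands, receptors, transducers, genes of restraint and targets, by day of feeding and over all days. Colour and number give the difference, and asterisks mark an adjusted p under 0.05 in limma. Timp1 is called on every day, while the largest values of Bcl3, Myc and Clcf1 are on day 1.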

How the data were processed

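The deposited values are log2 probe-set signals that the authors made with RMA, per the submitters' processing notes. RMA corrects background, sets the arrays to 1 distribution and summarises the probes of a set, so a change shared by all genes would not show. The RMA version and the probe annotation's build are not given in the sources used here. The values ran from 1.90 to 14.18, with array medians of 4.1 to 4.2, and were used as deposited, and the number of arrays limits precision.

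Of 45101 probe sets, 34958 name 1 gene in the platform table, and the 932 naming several and 9211 naming none were left out. Each of the 18194 genes was represented by its probe set with the highest mean. Members, lists and tests were chosen with earlier results of these data known. All 10 members are described. From each list the 3 largest called differences over all days and on day 1 are named, and for members with a range over 2 the 3 genes most correlated. Socs1 and Socs2 were named beyond this rule.

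One limma 3.58.1 (R 4.3.3) model with 14 groups and 14 residual degrees of freedom gave daily differences, the interaction and day 1 minus later days. The effect over all days used the 14 group means with day as a block (6 residual degrees of freedom). Tests were two-sided, with p-values adjusted by Benjamini and Hochberg over all genes. The code was tested on simulated data. Figures used matplotlib 3.10.9 in Python 3.11.15. The labels mark the second array of a group as its replicate 2, and the unmarked one was numbered 1. The numbers were not shown to pair the arrays, and a fit with the number as a block was run as an alternative. Alternatives changed the probe set choice, a filter (log2 of at least 5 on at least 2 arrays), scaling, variance moderation, blocks, and the arrays or days included. The test of each probe set separately and the fit without the 3 day 1 arrays whose beta-actin difference exceeded 2 were chosen after seeing the data.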

Additional observations from a re-analysis of the deposited data

Results flagged for a closer look

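The CLA minus control difference was called different between the 7 days for 4 of the 10 genes in limma's interaction test. That test treats each day as a group of its own, and it called 9.82% of all genes. For Il6 the interaction had an adjusted p = 3.79e-06, with a difference of 4.2 on day 1 and of 0.04 to 0.56 on the later days. For Socs3 it had an adjusted p = 0.0036, with 3.61 on day 1 and 0.47 to 1.51 later. For Osmr it had an adjusted p = 0.0199, with 2.28 on day 1 and 0.27 to 0.95 later. For Il6st it had an adjusted p = 0.0269, with 0.57 on day 17 and -0.37 on days 3 and 7. The interaction call was lost in 3 of 36 alternatives for Osmr and in 7 of 36 for Il6st, among these the other choices of probe set for Il6st. What sets the days apart was not tested.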

How the results depend on the processing

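Of 20 results of the 10 genes past the threshold, 10 kept their call in every alternative run, among them the day 1 and day 1 minus later days results of Il6, Osmr and Socs3. Il6 reached the dim filter's log2 of 5 only on the 2 CLA arrays of day 1. Its kept calls with that filter are therefore no check. Over 49 alternatives there were 772 values of these results, of which 732 kept the call, 40 lost it and 0 changed sign. The interaction values among them have no sign and could not change it. Of the alternatives, 28 left out 1 array. For the difference of a day that array mostly belonged to another day, so a kept call was then a weak check. The cause of the lost calls was not tested. With only the 4 arrays of a day in the model, which leaves 2 residual degrees of freedom, 591 genes were called on day 1 and 0 on day 2 in limma (2412 at an unadjusted p under 0.05), against 3420 and 1852. Of the 10 genes, 2 were then called on day 3, 3 on day 4 and 2 on day 10. Day 3 gave 2 (Osmr and Socs3) with quantile normalisation and without the 3 day 1 arrays of high beta-actin difference. With the dim filter, which keeps 8 of the 10 genes, day 3 gave the same 2 and day 4 gave 3. Day 4 gave 3 with the mean of all probe sets, and 2 with quantile normalisation, with the replicate block and without those 3 arrays. Day 7 gave 1, Il6ra, with the most variable probe set and with the mean of all probe sets. Day 10 gave 0 with the mean of all probe sets in limma (3 at an unadjusted p under 0.05). The counts of all genes on these days in these settings are not given here. The counts of the 10 genes there thus have no share to be read against. Leaving out 1 array at a time gave 0 to 2 of the 10 genes on day 2, 0 to 2 on day 3, 0 to 3 on day 4, 0 to 1 on day 7, 0 to 2 on day 10 and 1 to 3 on day 17. The count of all genes then ran from 343 to 2434 on day 2, with the lowest without control day 2 replicate 2. It ran from 2687 to 4308 on day 3, 2846 to 4600 on day 4, 2095 to 3303 on day 7, 2432 to 3868 on day 10 and 2352 to 3900 on day 17. The replicate block changed the count of the 10 genes on day 4 and over all days, where Il6 joined at 0.87 ± 0.30 (adjusted p = 0.0196 in limma) and 4 were called. Il6 also passed over all days with the 28 arrays as the unit (adjusted p = 0.018 in limma). The pairing check gave correlations of deviations of same-numbered arrays from 0.10 to 0.57 within a day and from -0.10 to 0.62 over all 91 pairs of groups, of which 78 were above 0, and the numbers were not shown to pair the arrays. With the mean of all probe sets Stat3 also passed over all days.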
